A study of Homo sapiens with 2 samples.

Results

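The 10 genes described here were compared between A549 cells in which transforming growth factor beta (TGF-beta) had induced epithelial to mesenchymal transition (EMT) and A549 cells given no treatment. They are the chemokine genes IL8, CXCL1, CXCL2, CXCL3 and CCL2, the cytokine gene IL6, the adhesion gene ICAM1, and NFKBIA, TNFAIP3 and RELB, which code for regulators of NF-kappaB. They were chosen by symbol among the 57736 gene entries of the deposited table, where interleukin 8 (now CXCL8) carries its older symbol IL8. A549 is an established human lung adenocarcinoma line; per the series text the cells carried a red fluorescent vimentin reporter, and the genotype is labelled WT for both conditions. Each condition was a single AmpliSeq Transcriptome library, in which multiplex PCR amplifies a short segment of each targeted transcript. The sources used here give neither the dose nor the duration of TGF-beta.

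NF-kappaB is a family of dimeric transcription factors held in the cytoplasm by inhibitor proteins. Signals from receptors for tumour necrosis factor, interleukin 1 or bacterial products activate the IkappaB kinase complex, the inhibitor is degraded, and the freed dimer enters the nucleus. In airway epithelial cells its known targets include the neutrophil chemokines of the CXC family, the monocyte chemokine CCL2, IL6, the leukocyte ligand ICAM1, and the pathway's own inhibitors NFKBIA and TNFAIP3.

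The TGF-beta library held 597133 rounded counts and the untreated library held 674784. The 10 genes with the most counts took 43.6% of counts with TGF-beta and 32.6% without treatment, and 1965 genes with TGF-beta and 3157 without treatment reached 20 counts. Values are CPM, counts relative to library totals scaled by the trimmed mean of M-values (TMM), and each has an exact 95% Poisson interval. Ratios are log2 of TGF-beta over untreated with an exact 95% Clopper-Pearson interval. Reads copied by PCR and carrying no molecular identifier are not separate molecules, so the intervals, and the floor used for a count of 0, describe error of counting alone. As each condition had 1 library, there was no replicate check and no test, and a gene was called when it differed by at least 2-fold and had at least 5 CPM in 1 library. Of the 15401 genes past that filter, 26.7% were called lower and 22.0% were called higher, with a median log2 ratio of 0.01. The filter is uneven, since 3 counts are 5.31 CPM with TGF-beta, which passes, and 4.21 CPM without treatment, which does not. With more than 3 counts required in 1 library, 4111 of 14067 genes were called lower and 2996 higher, with a median of -0.08. Levels are compared within a gene and not between genes, since each amplicon amplifies with its own efficiency. Of 9 markers of A549 and epithelial adenocarcinoma cells, 7 had counts with TGF-beta and all 9 without treatment, and their sums were 119 counts with TGF-beta and 614 without treatment. Of the 8 markers past the filter, 6 were called lower and 1 higher. AKR1B10 had 0 counts with TGF-beta and 22 without treatment, and KRT18 had 0 and 3, too few for a ratio. EPCAM went the other way with 7 counts with TGF-beta and 4 without treatment, and KRT19 was similar with 45 and 51. In bulk RNA, fewer cells of a type and less RNA per cell cannot be told apart.

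The promoters are shown first, because most of these genes are textbook targets of NF-kappaB. Sequences for 8 of the 10 genes were found in the RefSeq table for GRCh38.p14 (IL8 under CXCL8); CCL2 and RELB are named only. In the 250 bases before the transcript start, the 9 letters GGAATTTCC, a form of the NF-kappaB binding site, were present on either strand in 6 of these 8 promoters, against 0.428% of 27305 promoters. A 10-letter form (GGG, any 2 bases, then TTTCC, on either strand) was also present in 6 of the 8, against 1.73% of promoters. The forms overlap in CXCL1, CXCL2, CXCL3 and NFKBIA. All 8 promoters held at least 1 of them, against 547 of the 27305 promoters. A match describes letters in this window and says nothing of binding in these cells. Most of the genes were known as NF-kappaB targets when chosen, so more matches than among all promoters come with that choice. IL8 and ICAM1, which differed most strongly in opposite directions, are given with their 250 bases before the start; capitals mark GGAATTTCC or its reverse complement.
IL8 (GRCh38.p14, chr4:73740319-73740568, plus strand): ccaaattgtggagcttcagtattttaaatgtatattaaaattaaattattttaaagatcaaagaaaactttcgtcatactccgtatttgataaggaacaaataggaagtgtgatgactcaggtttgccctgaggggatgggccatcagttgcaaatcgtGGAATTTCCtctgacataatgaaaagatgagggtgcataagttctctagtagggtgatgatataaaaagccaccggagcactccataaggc
ICAM1 (GRCh38.p14, chr19:10270870-10271119, plus strand): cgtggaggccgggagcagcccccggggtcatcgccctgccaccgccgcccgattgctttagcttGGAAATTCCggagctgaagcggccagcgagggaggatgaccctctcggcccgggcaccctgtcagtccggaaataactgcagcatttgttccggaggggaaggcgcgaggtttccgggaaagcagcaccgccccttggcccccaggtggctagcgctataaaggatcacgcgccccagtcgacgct

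The match begins 91 bases before the start of IL8 on the gene's strand and 186 bases before the start of ICAM1 on the opposite strand. In the next sequences, 60 bases around the match show how alike the promoters of the CXCL1, CXCL2 and CXCL3 paralogs are, beside the inhibitor gene NFKBIA, where the match lies on the opposite strand.
CXCL1 (GRCh38.p14, chr4:73869290-73869349, plus strand): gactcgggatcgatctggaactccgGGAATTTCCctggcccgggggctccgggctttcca
CXCL2 (GRCh38.p14, chr4:74099238-74099297, minus strand): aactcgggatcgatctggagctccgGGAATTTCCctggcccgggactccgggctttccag
CXCL3 (GRCh38.p14, chr4:74038733-74038792, minus strand): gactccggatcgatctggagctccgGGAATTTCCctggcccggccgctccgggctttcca
NFKBIA (GRCh38.p14, chr14:35404796-35404855, minus strand): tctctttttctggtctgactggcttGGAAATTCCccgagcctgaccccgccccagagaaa

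IL6 and TNFAIP3 held the 10-letter form alone, IL6 as GGGATTTTCC at 73 bases before the start and TNFAIP3 at 67 and 55 bases before it on the opposite strand.

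Of the 10 genes, 9 passed the filter. Of these, 6 were called lower with TGF-beta (IL8, CXCL2, CCL2, NFKBIA, TNFAIP3 and RELB), ICAM1 was called higher, and CXCL3 and IL6 lay between. Their median log2 ratio was -1.08. Over all genes past the filter 26.7% were called lower and 22.0% higher. CCL2 and TNFAIP3 were close to the 2-fold limit, and with upper quartile scaling 4 members in place of 6 were called lower. With total counts or DESeq2 size factors 7 were, as IL6 then passed the limit. Over all genes past the filter, the upper quartile called 3887 of 15401 lower and total counts called 4636 of 15401 lower. DESeq2 size factors called 4753 of 14067 lower. At 20 CPM in 1 library, where counting error is smaller, 5 members were left (IL8, ICAM1, NFKBIA, TNFAIP3 and RELB); 4 were lower and 1 higher, against 36.0% lower and 18.5% higher among 5341 genes.

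**Figure D1:**
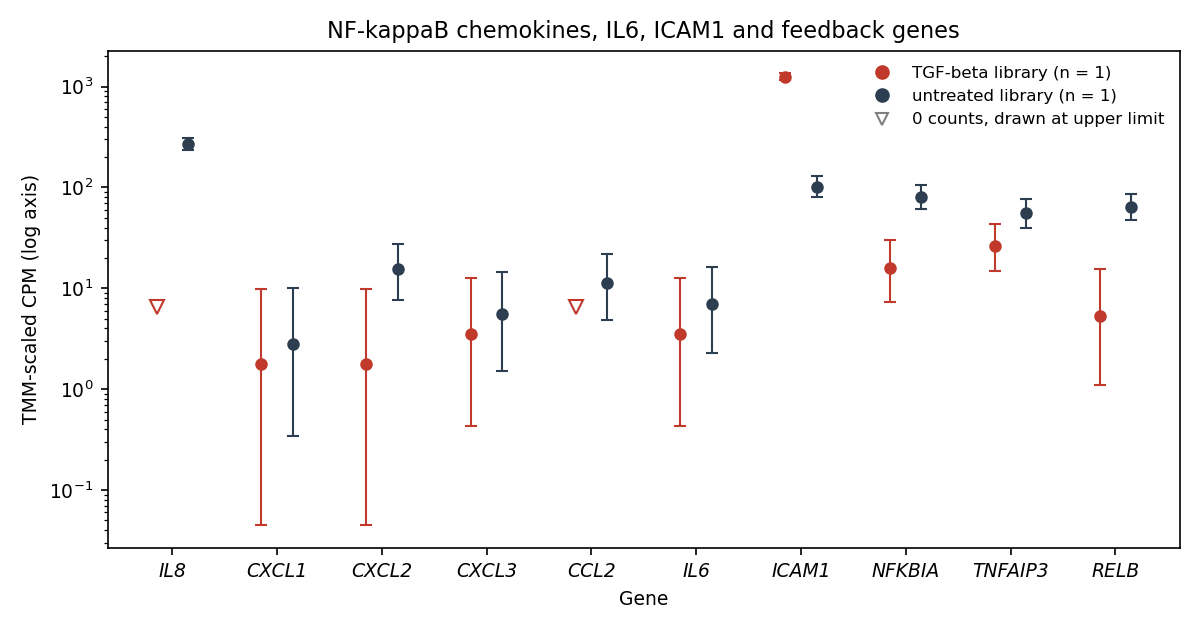
TMM-scaled CPM of the 10 genes on a log axis, with exact 95% Poisson intervals as bars; the TGF-beta library stands left of the untreated library for each gene, with 1 library each. Open triangles mark 0 counts, drawn at the exact Poisson upper limit of 6.53 CPM; ICAM1 is the gene with its TGF-beta value above its untreated value.

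IL8 codes for the chemokine that draws neutrophils through the receptors CXCR1 and CXCR2. IL8 (ENSG00000169429, hg19, chromosome 4, 74606223 to 74609433, plus strand) had 0 counts with TGF-beta (exact Poisson upper limit 6.53 CPM), against 193 counts or 271 CPM (234 to 312) without treatment. With its 0 replaced by a floor of 3 counts, or 5.31 CPM, the log2 ratio of IL8 was -5.67. The exact interval of the ratio has no lower end and reached up to -5.36, nearer to equality than the floor value. At the floor value, 22 (0.412%) of the 5341 genes with at least 20 CPM had a lower ratio, a place that is not exact because the ratio of IL8 depends on the floor. In the untreated library the counts of IL8 lay in 2 neighbouring exon blocks, 43.0 in the first and the other 77.7% in the second, where a block is a stretch of overlapping exons of the gene's transcripts. Both blocks were at 0 with TGF-beta.

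CXCL1, CXCL2 and CXCL3 code for the growth-regulated chemokines, which also act through CXCR2. CXCL2 (ENSG00000081041, chromosome 4, 74962752 to 74965010, minus strand) had 1 count with TGF-beta against 11 without treatment, or 1.77 CPM with TGF-beta against 15.4 CPM without treatment, with a log2 ratio of -3.12 (-8.55 to -0.34). CXCL3 (ENSG00000163734, chromosome 4, 74902306 to 74904524, minus strand) had 2 counts with TGF-beta against 4 without treatment, and its log2 ratio of -0.66 (-4.13 to 2.14) includes equality. CXCL1 (ENSG00000163739, chromosome 4, 74735110 to 74736959, plus strand) had 1 count with TGF-beta against 2 without treatment, under the filter, so that no ratio is given. A difference in CXCL1 or CXCL3 was not detectable at this depth. Transcripts of CXCL1 and CXCL2 are 88.7% identical over 1101 aligned bases, and the deposited values of all 3 genes include fractions (CXCL1 had 1.17 with TGF-beta and 2.33 without treatment), so reads may be divided between them. Summed over the 3 genes, which does not depend on such division among them, there were 4 counts with TGF-beta against 17 without treatment, with a log2 ratio of -1.75 (-3.78 to -0.14).

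CCL2 codes for the chemokine that recruits monocytes through CCR2. It (ENSG00000108691, chromosome 17, 32582304 to 32584222, plus strand) had 0 counts with TGF-beta against 8 without treatment, or 11.2 CPM (4.84 to 22.1). With the 0 set to the floor its log2 ratio was -1.08, and its interval reached up to -0.44, so the call of 2-fold rests on the floor. All CCL2 counts without treatment lay in a single exon block. IL6, the acute phase cytokine (ENSG00000136244, chromosome 7, 22765503 to 22771621, plus strand), had 2 counts with TGF-beta against 5 without treatment. Its log2 ratio of -0.99 had an interval from -4.38 to 1.62, so no difference was detectable in IL6. The 5 chemokine genes and IL6 together had 6 counts with TGF-beta against 223 without treatment, a log2 ratio of -4.88 (-6.34 to -3.74). IL8 held most of the untreated counts, and such a sum weights each gene by its own amplicon. Without IL8 the sums were 6 counts with TGF-beta and 30 without treatment, with a log2 ratio of -1.99 (-3.54 to -0.70).

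**Figure D2:**
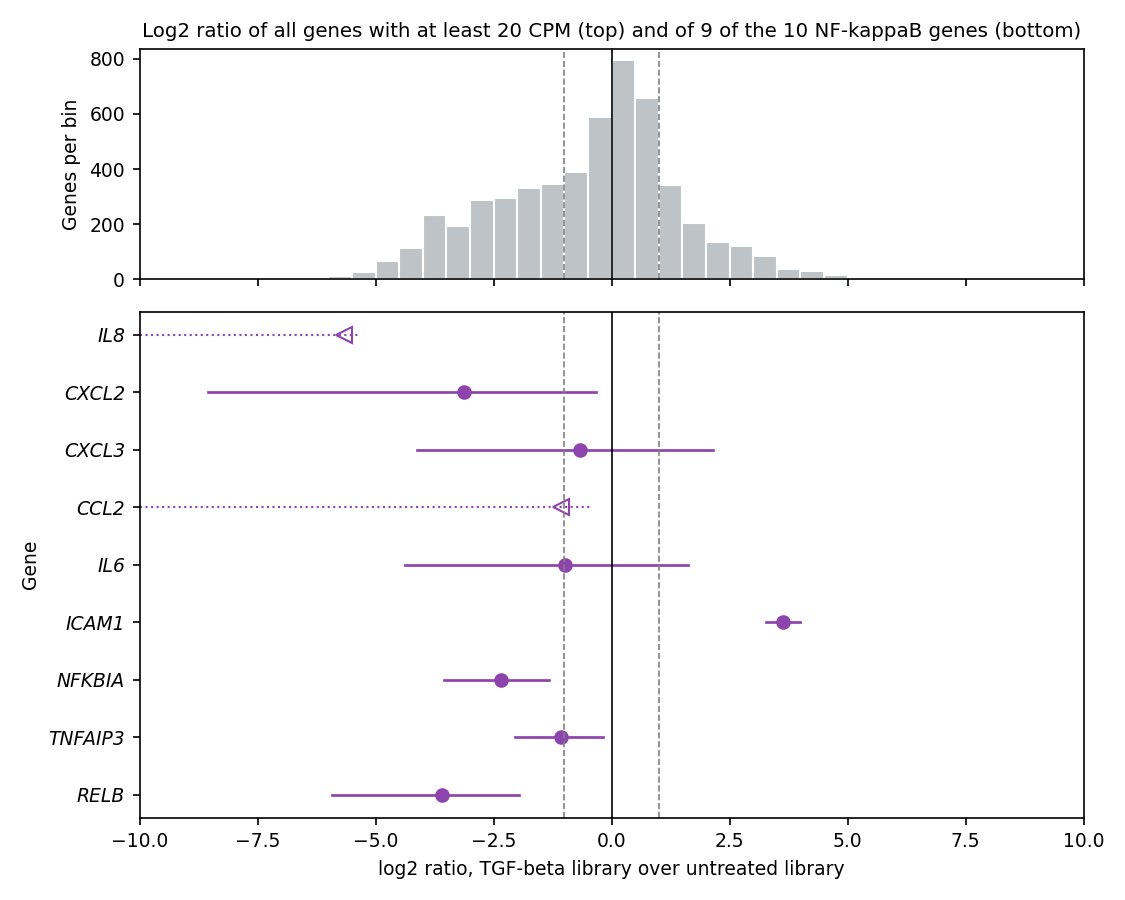
Distribution of the log2 ratio, TGF-beta over untreated, for 5341 genes with at least 20 CPM (top, genes per bin of 0.5) and the log2 ratio of 9 of the 10 genes with 95% counting intervals (bottom). Open triangles mark floor values where the TGF-beta count was 0, with dotted lines up to the end of the interval, and dashed lines mark 2-fold; ICAM1 at 3.62 stands alone on the right, and the other 8 lie left of 0.

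ICAM1 codes for a membrane protein of the immunoglobulin superfamily that binds leukocyte integrins. ICAM1 (ENSG00000090339, hg19, chromosome 19, 10381511 to 10397291, plus strand) had 711 counts or 1258 CPM (1168 to 1354) with TGF-beta, against 73 counts or 102 CPM (80.2 to 129) without treatment. It was 12.3-fold higher with TGF-beta, with a log2 ratio of 3.62 (3.27 to 3.99), and 85 (1.59%) of the 5341 genes with at least 20 CPM had a higher ratio.

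The higher value of ICAM1 rested on a single exon. Of its 8 exon blocks, the one at hg19 chromosome 19, 10394709 to 10394996, held 709.0 of 711.00 expected counts (99.7%) with TGF-beta and 67.0 of 72.50 (92.4%) without treatment. Outside this block there were 2 counts with TGF-beta, in the last block, and 6 without treatment, spread over 3 other blocks. There the log2 ratio was -1.25 with an interval from -4.59 to 1.23, so equality was within counting error. Leaving out the block removes nearly all of the measurement, and no direction of ICAM1 can be read from the few counts left. An AmpliSeq library reads a short segment of each gene, and a leading block is common. Among genes with at least 20 counts and more than 1 block, the leading block held a median of 93.2% of a gene's counts with TGF-beta (1505 genes) and 78.4% without treatment (2440 genes), and at least 99% of counts lay there in 26.3% of these genes with TGF-beta and in 15.7% without treatment. The leading block was chosen by its counts summed over both libraries, the same counts that gave the call. Ratios outside it can therefore lie nearer to equality by construction, and the following shares are a description only. Of 378 genes that were called higher at 20 CPM and gave a ratio outside their leading block, 54.8% were still called higher there, 138 were within 2-fold and 33 were called lower. ICAM1 falls among the 33 by its few counts. Another 322 genes called higher gave no ratio outside their leading block. Of 1074 genes called lower with such a ratio, 65.2% were still called lower and 20 were called higher.

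The block is exon 4 of the 7 exons of transcript ENST00000264832, 288 bases long and coding. The deposited transcript entries assigned 99.9% of the gene with TGF-beta and 87.3% without treatment to the shorter transcript ENST00000423829, whose exon covers the last 192 bases of the same block. Both transcripts hold these 192 bases, so reads within them cannot tell the transcripts apart. The shares therefore do not show which transcript was made. The sequence is shown because nearly all ICAM1 counts fall in it; it is the GENCODE 29 transcript sequence, whose exon lengths equal those in the deposited table, and capitals mark the 192 bases of the shorter transcript.
ICAM1 exon 4: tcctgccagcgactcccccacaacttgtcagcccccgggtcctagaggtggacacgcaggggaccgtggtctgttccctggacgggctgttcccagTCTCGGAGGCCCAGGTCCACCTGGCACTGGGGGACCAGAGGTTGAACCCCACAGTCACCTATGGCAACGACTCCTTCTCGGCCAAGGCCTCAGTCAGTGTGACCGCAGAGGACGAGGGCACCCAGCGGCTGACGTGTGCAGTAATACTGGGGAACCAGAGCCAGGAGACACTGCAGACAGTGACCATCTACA

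This exon is 62.8% G or C and gave no megablast match (E value up to 1e-10) in transcripts of another gene. The antisense gene CTD-2369P2.5, which spans the block on the minus strand, had 1 count in each library. A second antisense gene, CTD-2369P2.8, overlaps the last block of ICAM1 and had 5 counts with TGF-beta and 8 without treatment. Where they overlap, reads of CTD-2369P2.8 and of ICAM1 cannot be told apart, which limits the 2 counts with TGF-beta in that last block. The sources used here do not say how counting treated strand, so strand cannot separate ICAM1 from either antisense gene. CTD-2369P2.5 spans the ICAM1 exon shown above by its gene bounds. Among the transcripts searched, none of another gene matched that exon. Reads from unspliced RNA of CTD-2369P2.5 would still not be told apart from those of ICAM1 there.

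**Figure D3:**
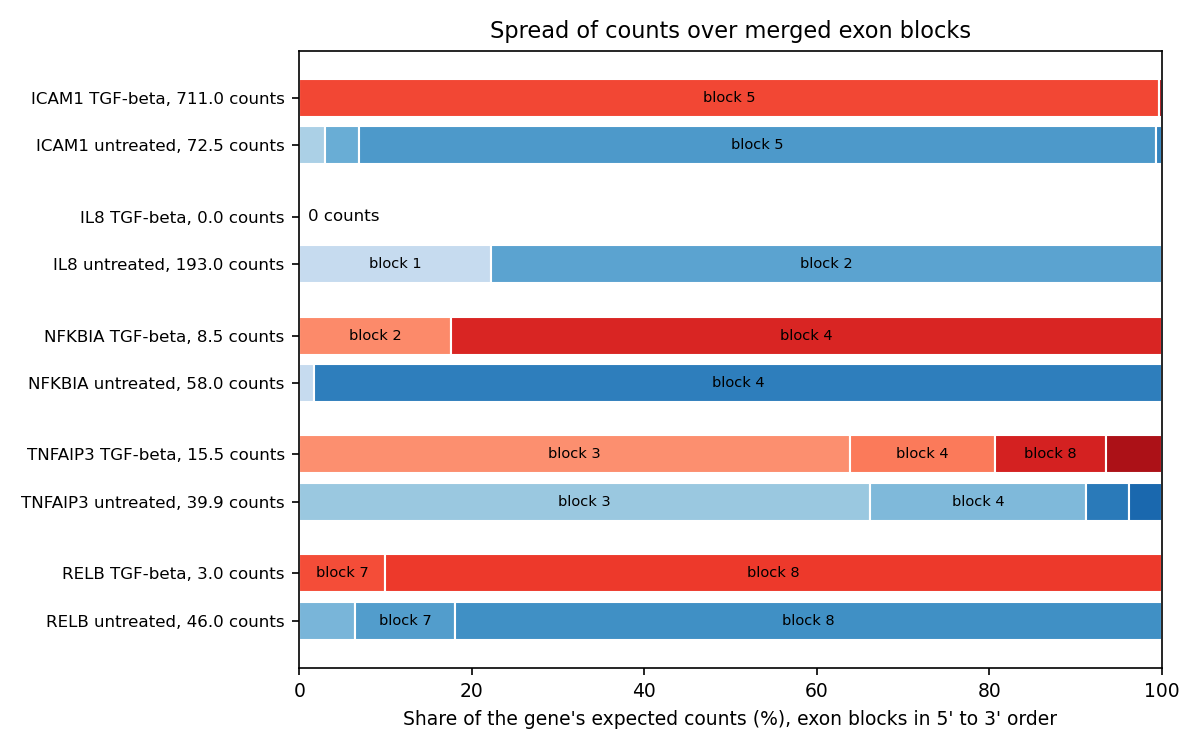
Share of each gene's expected counts in its merged exon blocks, in transcript order from left to right, for the 5 genes with at least 20 CPM; red bars are the TGF-beta library and blue bars below them the untreated library. ICAM1 lies almost wholly in block 5 in both libraries, and TNFAIP3 keeps a similar spread, with 64.1% in block 3 with TGF-beta and 66.1% without treatment.

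The neighbours of ICAM1 on chromosome 19 were not called higher. ICAM4 had 4 counts with TGF-beta against 3 without treatment, and ICAM5 had 14 with TGF-beta against 17 without, with a log2 ratio of 0.06 (-1.08 to 1.16). ICAM3 had 1 count with TGF-beta against 9 without treatment, with a log2 ratio of -2.83 (-8.29 to 0.02). The endothelial adhesion genes VCAM1 and SELE had 0 counts with TGF-beta, against 1 and 0 without treatment. ICAM1 is also made by leukocytes, fibroblasts and endothelium. Markers of leukocytes summed to 13 counts with TGF-beta and 39 without treatment (7 genes, with LYZ and CD79A at 0 in both), and those of fibroblasts to 55 with TGF-beta and 70 without treatment (6 genes, LUM at 0 in both). Markers of endothelium summed to 38 counts with TGF-beta and 34 without treatment, with 5 of 5 above 0 in each library. Single genes held much of these sums. PDGFRB had 48 of the fibroblast counts with TGF-beta and 52 without treatment, and TEK had 17 and 11 of the endothelial counts. Both libraries came from the A549 line, so such cells were not part of the design, and the sums do not show their presence.

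NFKBIA, TNFAIP3 and RELB code for arms of NF-kappaB control, and all 3 were lower with TGF-beta. NFKBIA, the inhibitor IkappaBalpha that is resynthesised after each activation (ENSG00000100906, chromosome 14, 35870717 to 35873955, minus strand), had 9 counts or 15.9 CPM (7.28 to 30.2) with TGF-beta against 58 counts or 81.3 CPM (61.8 to 105) without treatment. Its log2 ratio was -2.35 (-3.55 to -1.33). RELB, a subunit of the noncanonical pathway (ENSG00000104856, chromosome 19, 45504688 to 45541452, plus strand), had 3 counts or 5.31 CPM (1.09 to 15.5) with TGF-beta against 46 counts or 64.5 CPM (47.2 to 86.0) without treatment, and its log2 ratio was -3.60 (-5.93 to -1.97). Among the 5341 genes with at least 20 CPM, 36.0% were called lower. A lower ratio than that of NFKBIA was found in 19.1% of them, than that of TNFAIP3 in 34.7% and than that of RELB in 7.77%.

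TNFAIP3, the ubiquitin-editing enzyme A20 that ends signalling (ENSG00000118503, chromosome 6, 138188351 to 138204449, plus strand), had 15 counts or 26.5 CPM (14.9 to 43.8) with TGF-beta against 40 counts or 56.1 CPM (40.1 to 76.4) without treatment. Its log2 ratio of -1.08 (-2.04 to -0.19) was the smallest difference of the 3, and the CPM intervals of the libraries overlapped. TNFAIP3 had counts over 4 blocks in each library. Outside its leading block it had 6 counts with TGF-beta and 14 without treatment, a log2 ratio of -0.89 (-2.55 to 0.58). Its antisense neighbour RP11-356I2.4 had 2 counts with TGF-beta and 1 without treatment, and the antisense genes that overlap CCL2 and IL6 had 0 in both libraries. RELB had 0 counts outside its leading block with TGF-beta against 8 without treatment, a log2 ratio of -1.08 at the floor with an interval up to -0.44, and NFKBIA had too few for a ratio, at 2 with TGF-beta and 1 without treatment. The leading block held 98.3% of the NFKBIA counts without treatment and 82.4% with TGF-beta. For RELB it held 82.1% without treatment and 88.4% with TGF-beta. The lower values of NFKBIA and RELB thus also rested mainly on a single block. Summed, the 3 genes had 27 counts with TGF-beta against 144 without treatment, with a log2 ratio of -2.08 (-2.73 to -1.48).

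Housekeeping genes were lower in the same direction. Of 12 listed, 8 passed the filter, 7 of these were called lower and 0 higher, and their median log2 ratio was -3.28. Over all genes past the filter, 26.7% were called lower and 22.0% higher. The glycolytic enzyme gene GAPDH had 115 counts with TGF-beta against 2764 without treatment, and 65 of 77 expressed ribosomal protein genes were called lower with a median of -3.19. The ratios of NFKBIA and TNFAIP3 lay above both medians, and those of RELB and IL8 below them. The part of this shift in the members' values was not tested. Scaled on the ribosomal protein genes, every log2 ratio moved up by 3.51; IL8 was then the member still called lower, at -2.16, while CXCL2 (0.39), CXCL3 (2.85), IL6 (2.53), NFKBIA (1.16) and TNFAIP3 (2.43) turned direction.

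The other genes of the pathway were taken from lists drawn up by role, and each gene's log2 ratio and interval stand in parentheses. Of 12 further NF-kappaB subunits and inhibitors, 10 passed the filter, 6 were called lower and 1 higher, with a median of -2.04. The shares over all genes past the filter were 26.7% lower and 22.0% higher. RELA, the main activating subunit, had 3 counts with TGF-beta against 41 without treatment (-3.44, -5.77 to -1.79). TNIP1, a partner of A20, had 3 with TGF-beta against 107 without (-4.82, -7.12 to -3.23), and the inhibitor gene NFKBIB had 4 with TGF-beta against 39 without (-2.95, -4.90 to -1.48). BCL3, a nuclear IkappaB protein, was called higher at 13 counts with TGF-beta against 6 without treatment, but its interval (-0.04 to 3.13) included equality. NFKB1 had 2 counts with TGF-beta and 1 without treatment, too few for a ratio.

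Kinases and adaptors act upstream of NF-kappaB. Of 23 such genes, 17 passed the filter, with 5 lower, 1 higher and a median of -0.66, against 26.7% lower and 22.0% higher over all genes past the filter. TBK1, an IkappaB kinase relative, had 1 count with TGF-beta against 24 without treatment (-4.25, -9.61 to -1.63), BIRC2, a ubiquitin ligase of receptor complexes, had 0 with TGF-beta against 20 without (-2.40 at the floor, up to -1.97), and IKBKE had 14 with TGF-beta against 70 without (-1.99, -2.93 to -1.14). TAB1, an adaptor of the kinase TAK1, was higher at 18 with TGF-beta against 9 without (1.34, 0.11 to 2.67). Of 16 ligands and receptors upstream, 9 passed, with 4 lower and 2 higher. LTBR, the lymphotoxin beta receptor, had 5 counts with TGF-beta against 69 without treatment (-3.45, -5.12 to -2.16), and TNFRSF1A, the main receptor of tumour necrosis factor, had 3 with TGF-beta against 36 without (-3.25, -5.59 to -1.59). The interleukin 17 receptor gene IL17RA was higher, at 26 with TGF-beta against 14 without (1.23, 0.24 to 2.28), and TNF itself had 14 with TGF-beta against 7 without, with an interval from -0.07 to 2.89.

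Among other known NF-kappaB targets, 21 of 24 passed the filter, with 10 called lower, 3 higher and a median of -0.99. Over all genes past the filter, 26.7% were lower and 22.0% higher. GADD45B, a stress sensor, had 2 counts with TGF-beta against 144 without treatment (-5.83, -8.89 to -3.96). IER3, an early response gene, had 1 with TGF-beta against 49 without (-5.28, -10.61 to -2.73), and IL32, a cytokine gene, had 2 with TGF-beta against 24 without (-3.25, -6.38 to -1.24). CSF3, which codes for granulocyte colony-stimulating factor, was called higher at 12 with TGF-beta against 5 without, and its interval (-0.01 to 3.46) included equality. None of the listed genes outside the 10 was called higher with a ratio as large as that of ICAM1.

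**Figure D4:**
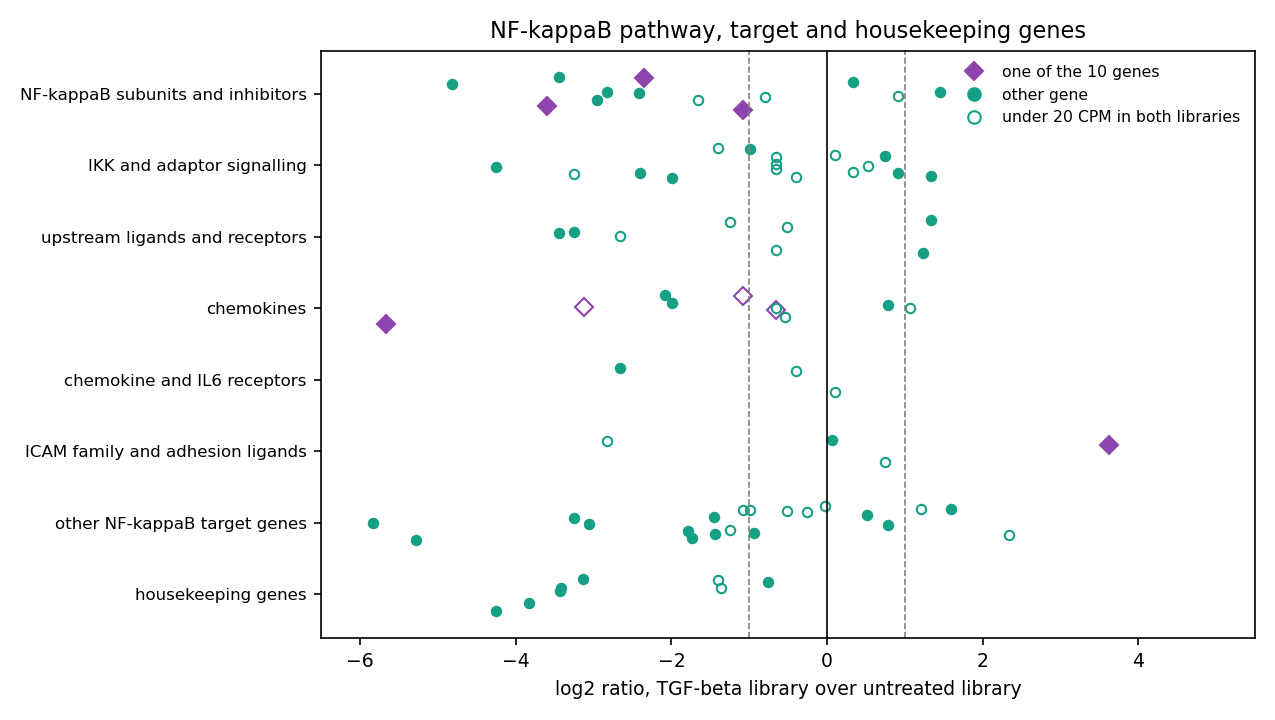
Log2 ratio, TGF-beta over untreated, of listed genes that passed 5 CPM and gave a ratio; each point is a gene, diamonds are 8 of the 10 genes (IL6 is in none of these lists and CXCL1 gave no ratio), open symbols are under 20 CPM in both libraries, and dashed lines mark 2-fold. Genes at 0 counts in a library are drawn at their floor value, and ICAM1 at 3.62 is the rightmost point.

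Of the 18 chemokine genes outside the members, 8 passed the filter, with 2 lower, 1 higher and a median of -0.10. These calls were no more frequent than over all genes past the filter, where 26.7% were lower and 22.0% higher. Those called lower at 20 CPM lie with IL8 in the CXC cluster on chromosome 4. CXCL5 had 6 counts with TGF-beta against 30 without treatment (-1.99, -3.54 to -0.70), and CXCL6 had 3 with TGF-beta against 16 without (-2.08, -4.50 to -0.27); both act on CXCR2. In the same cluster the platelet factor paralog PF4V1 had 1 with TGF-beta against 18 without (-3.83, -9.21 to -1.17), while PF4 had 3 counts in each library. CCL7, the neighbour of CCL2, had 5 counts with TGF-beta against 3 without treatment, with an interval from -1.29 to 3.76. Of 9 receptor genes for these ligands, 8 were matched and 3 passed. IL6ST, the signalling chain of the IL6 receptor, had 2 counts with TGF-beta against 16 without treatment (-2.66, -5.83 to -0.58), and CXCR1 and CXCR2 had at most 1 count in either library.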

How the data were processed

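Per the labels' protocols, each AmpliSeq library was made from 10 ng of RNA. The deposited table holds expected counts (estimated counts, not normalized) for gene entries, shares within the gene for transcript entries and divided counts for exon entries, on hg19. That build and DESeq appear in the submitters' processing notes, with no role stated. The aligner and counter: not given in the sources used here.

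Gene entries were rounded to the nearest whole number (0.5 upwards) and scaled with TMM in edgeR 4.0.16 under R 4.3.3 (factors 0.946 for the TGF-beta library and 1.06 for the untreated library). A count of 0 was set to a floor of 3 counts, which is 5.31 CPM with TGF-beta and 4.21 CPM without treatment, and no ratio is given where both counts were at or under it. Tallies and medians took a count of 0 at the floor and kept genes for which no ratio is given; the exact interval can lie nearer to equality than a floor value. Overlapping exon entries of a gene were merged into blocks and summed. Concentration over blocks was tallied for genes whose blocks summed to within 1% of the gene value. Intervals were computed with scipy 1.17.1 and sequence matches with blastn 2.17.0. Ratios and intervals were tested on simulated Poisson counts in which 200 genes differed. That simulation has no PCR copying and no broad shift between libraries, so it cannot show how scaling or intervals perform in these data. Groups came from the labels, and no p-value was computed.

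Members, lists and alternatives were chosen with earlier results of these data known. Named beside the members were up to 3 genes each way per list, with at least 20 CPM in 1 library and the largest differences of at least 2-fold, and genes that overlap or neighbour a member. Alternatives were other scalings (total counts, DESeq2 1.42.0 size factors, upper quartile, ribosomal protein genes), other filters, log2(CPM + 1), unrounded counts, and omission of the leading exon block.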

Additional observations from a re-analysis of the deposited data

How the results depend on the processing

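ICAM1 was called higher, and IL8, RELB and NFKBIA were called lower, under every scaling, filter, pseudocount and rounding tried, with 2 exceptions. Scaled on ribosomal protein genes, ICAM1 (7.13) and IL8 (-2.16) kept their calls, while RELB (-0.09) and NFKBIA (1.16) did not. Without the leading exon block, IL8 (-3.51) and RELB (-1.08) stayed lower, both at the floor. ICAM1 was then at -1.25 on few counts, and NFKBIA gave no ratio. Total counts shifted all log2 ratios by -0.16, DESeq2 size factors by -0.22 and the upper quartile by 0.08. Of 15401 genes past the filter, TMM called 4111 lower and 3391 higher (45.2% of calls higher). Of the same number, total counts called 4636 and 2927, the upper quartile 3887 and 3957, and log2(CPM + 1) 4653 and 3681. DESeq2 size factors called 4753 lower and 2463 higher of 14067 (34.1% of calls higher). Scaling on ribosomal protein genes called 118 and 21021 of 22300 (99.4%). Without a filter 7430 were lower and 6903 higher of 27275, and at 20 CPM 1921 and 986 of 5341. Without leading blocks 1732 were lower and 1243 higher of 6085.

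Scaled on ribosomal protein genes, members called lower numbered 1 in place of 6 and those called higher 6 in place of 1. One of these 6 was CXCL1, whose 1 count with TGF-beta and 2 without treatment are under the floor and give no ratio, and CCL2 no longer passed the filter. The log2 ratios were then -2.16 for IL8, 0.39 for CXCL2, 2.85 for CXCL3, 2.53 for IL6, 7.13 for ICAM1, 1.16 for NFKBIA, 2.43 for TNFAIP3 and -0.09 for RELB, and -1.37 for the summed chemokines and IL6. Without the leading block 3 members were called lower and 0 higher, with -3.51 for IL8, -0.08 for CXCL2, -1.25 for ICAM1 and -1.08 for RELB; fewer counts were left by construction. Where a gene no longer passed or gave no ratio, no value exists.

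List counts, without the 10 genes, moved most on ribosomal protein genes. Subunits and inhibitors had 1 lower and 8 higher in place of 6 and 1, kinases and adaptors 0 and 17 in place of 5 and 1, ligands and receptors 0 and 12 in place of 4 and 2, chemokines 0 and 14 in place of 2 and 1, cytokine receptors 0 and 4 in place of 1 and 0, ICAM relatives 0 and 3 in place of 1 and 0, other targets 2 and 19 in place of 10 and 3, and housekeeping genes 0 and 6 in place of 7 and 0. With the upper quartile 2 subunits and 2 adaptors were higher. Without a filter 2 subunits, 2 adaptors and 2 ICAM relatives were higher, and 7 ligands or receptors, 4 chemokines and 2 cytokine receptors were lower. At 20 CPM 3 adaptors, 2 ligands or receptors and 0 ICAM relatives were lower, and 1 other target and 0 chemokines were higher. With log2(CPM + 1) 2 adaptors and 0 chemokines were higher, and with total counts or DESeq2 size factors 0 chemokines were higher. The cause was not tested.

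No paired analysis was possible because each condition has 1 library, and leaving out a library would leave nothing to compare. Depth limits CXCL1, CXCL3, CCL2 and IL6 most, with at most 8 counts in a library.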
